A study of Mus musculus with 18 samples.

Results

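The genes described here are 10 genes of glucose uptake, glycolysis and lactate exchange among the 52636 genes counted in mouse retinal pigment epithelium (RPE). They are the glucose transporters *Slc2a1* and *Slc2a12*, the glycolytic enzymes *Hk1*, *Hk2*, *Pfkp* and *Pkm*, the lactate dehydrogenase subunits *Ldha* and *Ldhb*, and the lactate carriers *Slc16a1* and *Slc16a8*. They were found by symbol, and they had been chosen with their levels in all 6 groups known, so their levels and differences are given as a description with no test. All 10 had enough counts to pass the filter on low counts in each comparison.

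RNA was sequenced from RPE of C57BL/6 mice at postnatal day 14 in 18 libraries, 3 in each of 6 groups, with both eyes of 1 mouse in each library. One group was uninjected, and the other 5 had received an AAV8 vector under the RPE-active *Best1* promoter into the subretinal space at birth. The vector carried GFP, nSREBP2 (the nuclear, active form of the sterol regulator SREBP2), a control hairpin against LacZ (ctrl sh) or one of 2 hairpins against *Lrp2* (Lrp2 sh1 and Lrp2 sh2), the gene of the endocytic receptor megalin. The comparisons were nSREBP2 versus GFP, each *Lrp2* hairpin versus ctrl sh, each control vector versus uninjected eyes, and Lrp2 sh2 versus Lrp2 sh1. The 5 vector groups share the injection, the capsid and the promoter. The RPE was freed from the eyecup with papain and no sort is described, so a library could hold RNA of neighbouring cells. The labels give the tissue as retinal. No source says that every cell of an eye carried the vector.

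The outer retina has no vessels of its own, and glucose reaches photoreceptors from the choroid by crossing the RPE, through GLUT1 (*Slc2a1*) on both faces of the epithelium. Photoreceptors ferment much of this glucose and release lactate, which the RPE takes up through MCT1 (*Slc16a1*) on the retinal face and passes to the choroid through MCT3 (*Slc16a8*), a carrier found almost only in RPE and choroid plexus. Hexokinase traps glucose in the cell, phosphofructokinase and pyruvate kinase control the flux to pyruvate, and lactate dehydrogenase interconverts pyruvate and lactate, with the LDHB subunit typical of tissues that use lactate.

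CPM, counts scaled to a common library size, are used for the level of 1 gene across libraries, and CPM per kb of exon for levels between genes. A difference is the log2 fold change (log2FC) from edgeR with its standard error (SE). In bulk samples like these, fewer cells of a type and less RNA per cell cannot be told apart. The libraries held 8921885 to 13696934 counts. The manipulated genes followed the labels: *Srebf2* had a log2FC of 1.10 ± 0.11 (SE) in nSREBP2 versus GFP (adjusted P = 0.000121, edgeR), and *Lrp2* had -1.68 ± 0.22 (adjusted P = 0.00328) and -1.60 ± 0.21 (adjusted P = 0.00109) with Lrp2 sh1 and Lrp2 sh2 versus ctrl sh. *Lrp2* was also lower with nSREBP2 versus GFP, at -2.18 ± 0.24 (adjusted P = 0.000233).

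The tissue carried RPE markers in every library, and a pair of libraries stood apart from their groups. The summed level of 12 RPE markers ran from 6722 to 14156 CPM in uninjected eyes, from 4571 to 5017 CPM with Lrp2 sh2 and from 4770 to 8814 CPM in the other 4 groups, and none of the 12 was at 0 in any group. In every injected library *Pmel* and *Tyrp1* had the highest levels of the 12, so the sum weighs them most. *Rpe65*, the visual cycle isomerase, was 376 to 1127 CPM in uninjected eyes. It was 97.0 CPM in ctrl sh replicate 1 and 44.0 CPM in Lrp2 sh1 replicate 2, and 1.06 to 15.6 CPM in the other 13 injected libraries. The uninjected replicate 1 was the lowest of its group and ctrl sh replicate 1 the highest of its group for *Slc16a1*, *Slc16a8* and *Rlbp1*, the gene of the retinaldehyde-binding protein of RPE and Müller glia. Values without these libraries are given where leaving them out moved a difference by over 1.5 times. Y-linked transcripts marked 1 uninjected, 3 nSREBP2 and 2 Lrp2 sh2 libraries and none in the other groups. Sex and group thus coincide in nSREBP2 versus GFP. Only the uninjected and Lrp2 sh2 groups held libraries with and without these transcripts, so a sex term rests on them. Values from a fit of all 18 libraries with sex as a term are given beside differences that it turned or moved by over 1.5 times.

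Markers of other cell types were detected and moved with some comparisons. The summed level of 6 fibroblast markers was 28441 to 37215 CPM with GFP and 60904 to 74380 CPM with nSREBP2, and the 6 macrophage markers summed to 212 to 246 CPM and 402 to 428 CPM. All 6 markers of each list passed the test as higher with nSREBP2 than with GFP. Of 8 endothelial markers, 6 passed as lower with nSREBP2 and 7 as lower with Lrp2 sh2 versus ctrl sh, where all 5 erythroid markers were lower and 14 of 16 rod markers were higher. With nSREBP2, 5 of 16 rod markers and 3 of 5 cone markers tested were higher than with GFP, and the rod markers summed to 350 to 499 CPM against 52.6 to 378 CPM. Endothelium also carries GLUT1, and *Hk3* is a myeloid hexokinase. The part of these cells in the values below was not tested.

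Promoter sequences are shown for the 4 members whose levels differed by over 2-fold between Lrp2 sh2 and ctrl sh, which are the 2 lactate carriers, *Slc2a12* and *Hk2*. The windows are the 250 bases before the RefSeq start (GRCm38.p6), written 5′ to 3′ on the strand of the gene. For *Slc16a8*, 13 bases that overlap its own first exon in GENCODE were left out. Capitals mark CACGTG (the E-box), ACGTG or its complement CACGT (the core of the hypoxia response element, which the E-box contains), and GTGGGG or its complement CCCCAC (found in the classical sterol response element).

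Slc16a1 (chr3:104638414-104638663, plus strand): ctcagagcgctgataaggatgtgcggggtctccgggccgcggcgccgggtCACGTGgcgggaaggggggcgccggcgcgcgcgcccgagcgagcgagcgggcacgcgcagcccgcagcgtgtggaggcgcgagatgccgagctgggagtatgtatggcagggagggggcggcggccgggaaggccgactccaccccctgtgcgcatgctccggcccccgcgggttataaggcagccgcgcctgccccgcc

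Slc16a8 (chr15:79254762-79254998, minus strand): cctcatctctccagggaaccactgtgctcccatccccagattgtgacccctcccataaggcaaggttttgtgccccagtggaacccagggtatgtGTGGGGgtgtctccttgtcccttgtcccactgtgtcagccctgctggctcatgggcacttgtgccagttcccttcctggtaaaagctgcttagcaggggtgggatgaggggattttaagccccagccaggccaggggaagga

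Slc2a12 (chr10:22644761-22645010, plus strand): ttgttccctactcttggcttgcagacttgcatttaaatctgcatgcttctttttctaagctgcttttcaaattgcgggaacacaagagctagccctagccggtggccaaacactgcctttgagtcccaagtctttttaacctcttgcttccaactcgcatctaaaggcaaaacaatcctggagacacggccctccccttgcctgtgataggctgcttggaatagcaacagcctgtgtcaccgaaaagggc

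Hk2 (chr6:82774455-82774704, minus strand): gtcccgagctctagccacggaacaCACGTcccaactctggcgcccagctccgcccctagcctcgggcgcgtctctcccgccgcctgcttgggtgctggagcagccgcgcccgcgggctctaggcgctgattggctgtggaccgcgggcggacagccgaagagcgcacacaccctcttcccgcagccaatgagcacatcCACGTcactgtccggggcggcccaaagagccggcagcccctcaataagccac

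The *Slc16a1* window held 1 E-box, at position -200 from the start. The *Hk2* window held CACGT at -226 and -52, *Slc16a8* held GTGGGG at -155, and the *Slc2a12* window held none of the motifs. Of 32851 promoters of this length, 6.02% held an E-box, 16.6% held ACGTG and 25.5% held GTGGGG on either strand. Over the 13 promoters listed for the 10 genes, 2 held an E-box, 5 held ACGTG and 4 held GTGGGG. A match is a description of letters and not a bound site.

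*Slc2a1* was lower with nSREBP2 than with GFP, and *Slc2a12*, which encodes the glucose carrier GLUT12, was lower with both *Lrp2* hairpins than with ctrl sh and overlapped between nSREBP2 and GFP. *Slc2a1* (chromosome 4, 119108711 to 119137983, plus strand) had 152, 133 and 102 CPM in the nSREBP2 libraries and 258, 337 and 226 CPM in the GFP libraries. Every nSREBP2 library lay below every GFP library. The means were 129 ± 25.5 and 274 ± 57.4 CPM (SD, n = 3), a 2.13-fold lower level with a log2FC of -1.09 ± 0.17 (SE).

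With Lrp2 sh1, *Slc2a1* had 194, 205 and 186 CPM against 336, 239 and 249.04 CPM with ctrl sh, and the groups did not overlap (log2FC -0.50 ± 0.12). With Lrp2 sh2 it had 185, 172 and 240 CPM, and the highest of these lay among the control values (log2FC -0.45 ± 0.15). Leaving out ctrl sh replicate 1 gave -0.33 and -0.29. Uninjected eyes had the highest mean, 396 ± 120 CPM (SD, n = 3), but their lowest library, at 267 CPM, lay within the range of the control vectors.

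*Slc2a12* (chromosome 10, 22645011 to 22704285, plus strand) had 30.4, 30.0 and 30.9 CPM with ctrl sh, 13.7, 13.3 and 12.9 CPM with Lrp2 sh1, and 7.06, 5.97 and 6.49 CPM with Lrp2 sh2. The replicates of each group lay close together and the 3 groups did not overlap. Lrp2 sh1 was 2.29-fold lower than ctrl sh (log2FC -1.20 ± 0.08) and Lrp2 sh2 4.62-fold lower (log2FC -2.21 ± 0.11). Leaving out ctrl sh replicate 1 gave -2.22 for Lrp2 sh2.

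The level of *Slc2a12* with GFP was unlike that with ctrl sh. The GFP libraries had 8.32, 8.72 and 5.80 CPM and the nSREBP2 libraries 7.07, 6.76 and 9.99 CPM. These groups overlapped (log2FC 0.06 ± 0.22, and -0.12 ± 0.29 with sex as a term). With 1 library left out this ran from -0.13 to 0.17, below 0 without GFP replicate 3 or nSREBP2 replicate 3. Uninjected eyes had 14.6, 23.8 and 26.3 CPM, above all GFP libraries and below all ctrl sh libraries. The log2FC versus uninjected was thus -1.51 ± 0.24 for GFP and 0.49 ± 0.19 for ctrl sh (0.28 ± 0.10 without uninjected replicate 1), and the vectors that served as controls lay on opposite sides of the uninjected eyes. Exons of both transporters overlap a second gene in the annotation, by 105 bases with *Gm12868* and 407 bases with *Tbpl1*, and strand use in counting is not given in the sources used here.

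**Figure D1:**
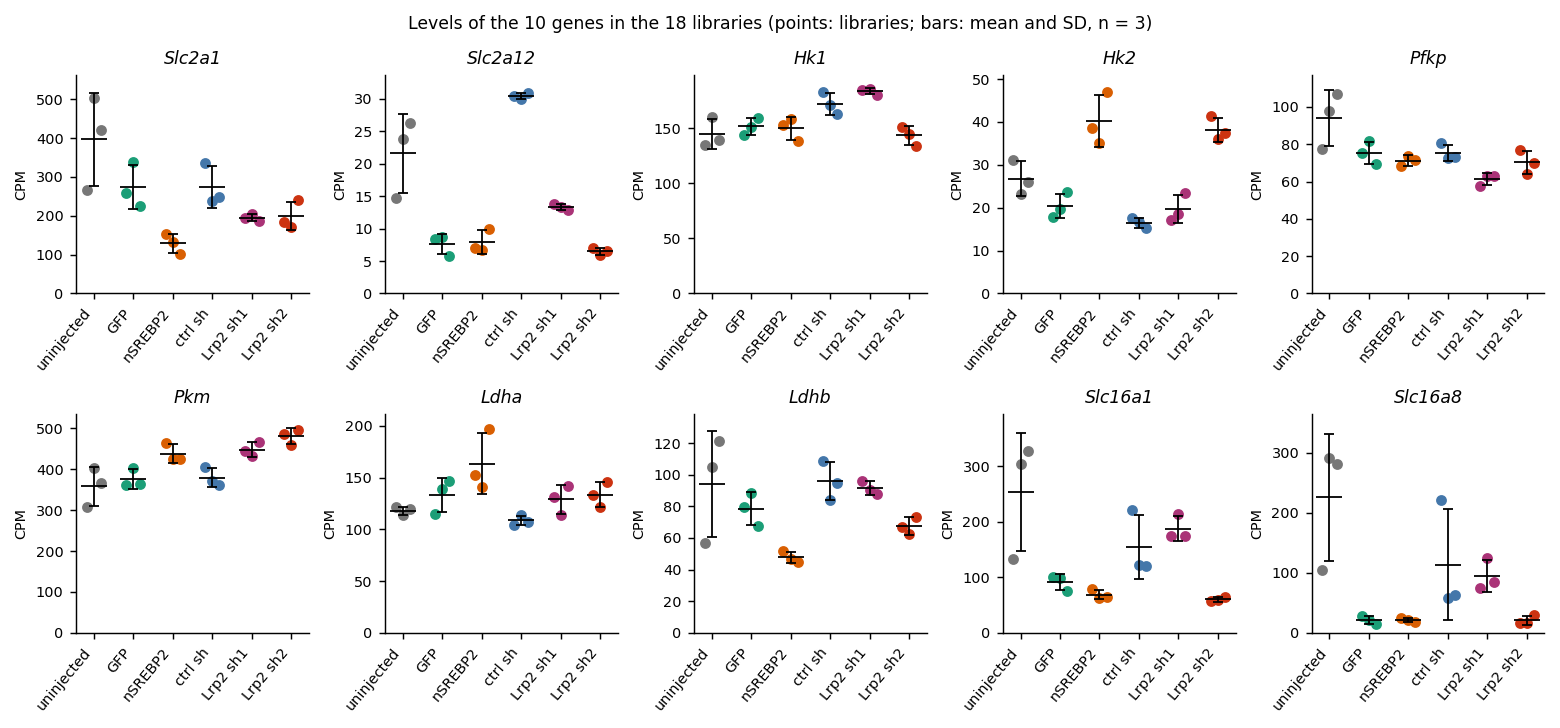
Level of each of the 10 genes in CPM (linear axes from 0) in the 6 groups, with 1 point for each of the 3 libraries of a group and bars at the group mean and SD. *Slc16a8* ranged most, from 14.8 to 292 CPM, and *Hk1* least, from 134 to 185 CPM.

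*Hk2* differed between groups more than *Hk1*. *Hk2*, the inducible enzyme bound to mitochondria, was higher with nSREBP2 and with Lrp2 sh2 than in their controls. *Hk2* (chromosome 6, 82725025 to 82774454, minus strand) had 38.5, 35.1 and 47.0 CPM with nSREBP2 and 17.8, 19.8 and 23.6 CPM with GFP. The groups did not overlap, and the level was 1.97-fold higher (log2FC 0.98 ± 0.13). With Lrp2 sh2 it had 41.3, 36.0 and 37.3 CPM against 17.6, 16.6 and 15.3 CPM with ctrl sh, 2.34-fold higher (log2FC 1.22 ± 0.10). With Lrp2 sh1 it had 17.2, 18.5 and 23.4 CPM, which overlapped the controls (log2FC 0.25 ± 0.13, and 0.11 without Lrp2 sh1 replicate 3). The uninjected libraries, at 31.2, 23.1 and 26.1 CPM, all lay above ctrl sh.

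*Hk1* (chromosome 10, 62268855 to 62379908, minus strand) is the constitutive hexokinase. It was 150 ± 10 CPM with nSREBP2 and 152 ± 8.08 CPM with GFP (SD, n = 3). The log2FC was -0.02 ± 0.07, and 0.08 ± 0.11 with sex as a term. Leaving out 1 library gave -0.06 to 0.04, above 0 without GFP replicate 3 or nSREBP2 replicate 3. *Hk1* was 172 ± 9.84 CPM with ctrl sh, 184 ± 2.74 CPM with Lrp2 sh1 and 143 ± 8.82 CPM with Lrp2 sh2. The Lrp2 sh2 libraries lay below ctrl sh (log2FC -0.25 ± 0.07), and the Lrp2 sh1 libraries overlapped it (log2FC 0.09 ± 0.06, with 0.13 and 0.05 without ctrl sh replicates 1 and 3). The share of *Hk2* in the hexokinase pair, by CPM per kb, was 27.8% ± 4.42 with nSREBP2 and 16.1% ± 1.21 with GFP (SD, n = 3). It was 12.04% ± 0.189 with ctrl sh, 13.3% ± 2.07 with Lrp2 sh1 and 27.6% ± 1.24 with Lrp2 sh2. *Hk1* exons overlap *Hk1os* by 157 bases.

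The enzymes of the later control steps differed by small amounts. *Pfkp*, the platelet isoform of phosphofructokinase (chromosome 13, 6579768 to 6648777, minus strand), ranged from 57.4 to 107 CPM over the 18 libraries. Its level was 61.2 ± 3.25 CPM with Lrp2 sh1 and 75.4 ± 4.37 CPM with ctrl sh (SD, n = 3), with no overlap (log2FC -0.31 ± 0.07). The nSREBP2 and Lrp2 sh2 libraries overlapped their controls, with log2FC of -0.08 ± 0.08 (-0.14 ± 0.15 with sex as a term) and -0.09 ± 0.08. Leaving out 1 library moved the first to -0.02 without GFP replicate 2, -0.05 without nSREBP2 replicate 1 and -0.14 without GFP replicate 3. It moved the second to -0.05 without ctrl sh replicate 1, -0.16 without Lrp2 sh2 replicate 1 and -0.03 without Lrp2 sh2 replicate 2.

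*Pkm*, pyruvate kinase (chromosome 9, 59656368 to 59679375, plus strand), was higher with nSREBP2 and with both hairpins than in their controls, by less than 1.5-fold. It was 438 ± 23.2 CPM with nSREBP2 and 376 ± 23.5 CPM with GFP (SD, n = 3; log2FC 0.22 ± 0.07). It was 448 ± 17.6 CPM with Lrp2 sh1 and 481 ± 19.5 CPM with Lrp2 sh2 against 380 ± 23.8 CPM with ctrl sh, with log2FC of 0.23 ± 0.07 and 0.35 ± 0.07. The libraries did not overlap in any of these comparisons. Gene counts do not separate the M1 and M2 forms. Exons of *Pfkp* and *Pkm* overlap *Pitrm1* by 748 bases and *Gm49759* by 767 bases.

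*Ldhb* was lower with nSREBP2 and with Lrp2 sh2 than in their controls, and *Ldha* was higher with both hairpins. *Ldhb* (chromosome 6, 142490249 to 142507957, minus strand) had 51.9, 46.5 and 44.8 CPM with nSREBP2 and 79.6, 88.6 and 67.4 CPM with GFP. All nSREBP2 libraries lay below all GFP libraries (log2FC -0.72 ± 0.10). With Lrp2 sh2 it had 67.2, 62.3 and 73.4 CPM against 109, 84.3 and 95.02 CPM with ctrl sh, again with no overlap (log2FC -0.49 ± 0.10, and -0.40 without ctrl sh replicate 1). Lrp2 sh1, at 96.2, 90.4 and 87.8 CPM, overlapped ctrl sh (log2FC -0.08 ± 0.09, with 0.02 and -0.16 without ctrl sh replicates 1 and 2 and -0.04 without Lrp2 sh1 replicate 3).

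*Ldha* (chromosome 7, 46841475 to 46855627, plus strand), whose subunit is typical of tissues that make lactate, was 163 ± 29.6 CPM with nSREBP2 and 133 ± 16.7 CPM with GFP (SD, n = 3). These libraries overlapped (log2FC 0.29 ± 0.13, with 0.14 without nSREBP2 replicate 3 and 0.19 without GFP replicate 1). It was 129 ± 14.1 CPM with Lrp2 sh1 and 134 ± 12.1 CPM with Lrp2 sh2 against 109 ± 4.66 CPM with ctrl sh. Both hairpin groups lay above ctrl sh, with log2FC of 0.24 ± 0.08 and 0.31 ± 0.08. For Lrp2 sh1 the groups barely parted, with its lowest library at 113.9 CPM and the highest ctrl sh library at 113.7 CPM.

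The balance of the subunits shows this in 1 value per library. By CPM per kb, *Ldhb* made up 55.3% ± 5.40 of the pair with GFP and 38.4% ± 5.21 with nSREBP2 (SD, n = 3). It made up 64.9% ± 3.82 with ctrl sh, 60.0% ± 3.03 with Lrp2 sh1 and 51.6% ± 0.232 with Lrp2 sh2. *Ldhb* was the lesser of the pair on this scale only with nSREBP2, by group means. The scale depends on the exon lengths used, 3310 bases for *Ldha* and 1570 for *Ldhb*. In CPM without division by length, *Ldhb* had the lower mean in every group, with 94.2 against 118 CPM in uninjected eyes.

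**Figure D2:**
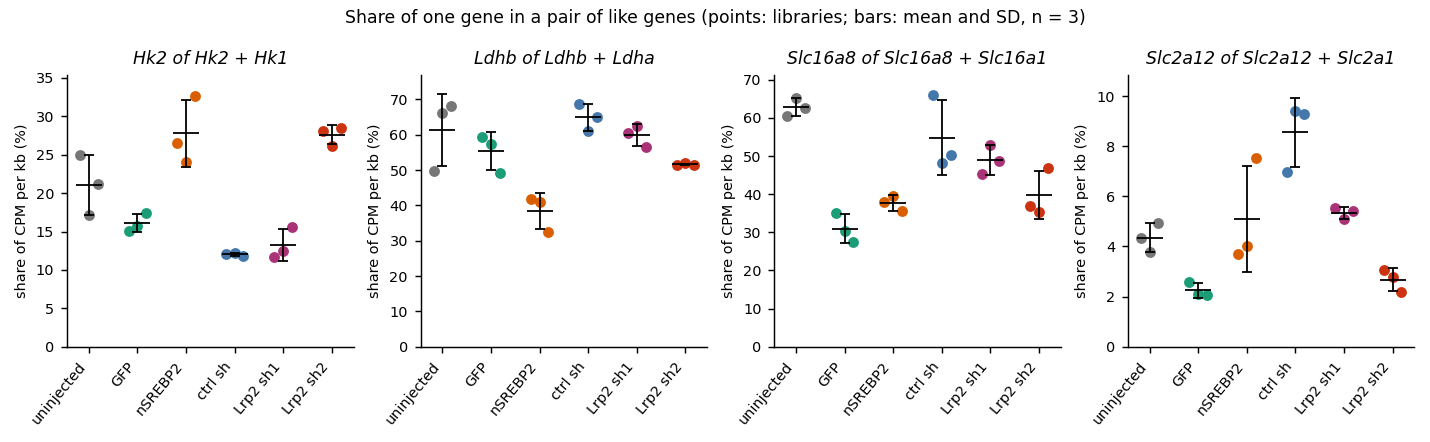
Share of 1 gene in each pair of related genes, in percent of their summed CPM per kb of exon, by group, with 1 point for each of the 3 libraries and bars at the group mean and SD. The share of *Hk2* was highest with nSREBP2 (mean 27.8%) and Lrp2 sh2 (mean 27.6%), and that of *Ldhb* lowest with nSREBP2 (mean 38.4%).

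The lactate carriers spanned the widest range of the 10 genes, with the highest levels in uninjected eyes and with wide spreads within the uninjected and ctrl sh groups. Over the 18 libraries *Slc16a8* ranged 19.8-fold and *Slc16a1* 5.77-fold, against 5.32-fold for *Slc2a12*, 4.95-fold for *Slc2a1*, 3.07-fold for *Hk2*, 2.71-fold for *Ldhb* and under 1.9-fold for the other 4. *Slc16a8* (chromosome 15, 79251014 to 79254761, minus strand) had 104, 292 and 282 CPM in uninjected eyes and 27.8, 22.1 and 14.8 CPM with GFP. The groups were far apart, with GFP 10.5-fold lower (log2FC -3.40 ± 0.39, and -3.74 ± 0.20 without uninjected replicate 1).

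The nSREBP2 libraries had 24.6, 21.2 and 18.4 CPM of *Slc16a8*, within the range of GFP (log2FC -0.01 ± 0.20, and -0.49 ± 0.69 with sex as a term). Leaving out 1 library gave -0.22 to 0.21, the ends being without GFP replicates 3 and 1. With ctrl sh the 3 libraries had 221, 57.9 and 62.3 CPM, and replicate 1 stood far above the other two. Lrp2 sh1 had 74.0, 124 and 84.6 CPM, inside the span of ctrl sh (log2FC -0.28 ± 0.45). The sign of that difference turned without ctrl sh replicate 1, to 0.65 ± 0.18, and was -0.60 and -0.57 without ctrl sh replicates 2 and 3 and -0.13 and -0.53 without Lrp2 sh1 replicates 1 and 2. Lrp2 sh2 had 16.97, 16.5 and 29.5 CPM, below all ctrl sh libraries. The log2FC was -2.43 ± 0.50, a 5.39-fold lower level, and -1.51 ± 0.21 without ctrl sh replicate 1.

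*Slc16a1* (chromosome 3, 104638668 to 104658462, plus strand) followed a like order. It had 132, 303 and 327 CPM in uninjected eyes, 99.9, 99.3 and 75.5 CPM with GFP and 78.4, 63.2 and 65.0 CPM with nSREBP2. The nSREBP2 and GFP libraries overlapped (log2FC -0.41 ± 0.12, and -0.78 ± 0.37 with sex as a term). GFP lay below uninjected eyes (log2FC -1.48 ± 0.29, and -1.79 ± 0.12 without uninjected replicate 1).

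With ctrl sh *Slc16a1* had 222, 121 and 120 CPM, with Lrp2 sh1 175, 214 and 174 CPM, and with Lrp2 sh2 56.6, 58.6 and 64.9 CPM. Lrp2 sh2 lay below both other groups, 2.55-fold below ctrl sh (log2FC -1.35 ± 0.21, and -1.003 ± 0.08 without ctrl sh replicate 1). Lrp2 sh1 overlapped ctrl sh (log2FC 0.27 ± 0.21, and 0.63 ± 0.09 without that library). It was 0.13 and 0.12 without ctrl sh replicates 2 and 3, and 0.17 without Lrp2 sh1 replicate 2. *Bsg*, which encodes basigin, the chaperone that brings both carriers to the membrane, fell with Lrp2 sh2 versus ctrl sh, from 782 ± 83.5 to 385 ± 45.4 CPM (SD, n = 3). Its log2FC was -1.01 ± 0.11 (adjusted P = 0.000343, edgeR), and the call was lost against uninjected eyes, at 576 ± 192 CPM (SD, n = 3; adjusted P = 0.103, edgeR). With Lrp2 sh1 *Bsg* had a log2FC of 0.03 (adjusted P = 0.874, edgeR) and with nSREBP2 -0.13 (adjusted P = 0.378, edgeR).

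The carriers followed some RPE markers over the libraries and not others. Over the 18 libraries, differences between groups included, log2(CPM + 1) of *Slc16a8* and *Rlbp1* had a Pearson r of 0.96 and a Spearman rho of 0.95, and *Slc16a1* and *Slc16a8* had 0.96 and 0.92. *Slc16a8* also had r of 0.95 with *Lrat*, 0.93 with *Rgr* and *Ttr* and 0.91 with *Stra6*, but 0.18 with *Mitf*, 0.25 with *Pmel*, 0.08 with *Tyrp1* and 0.01 with *Krt18*. *Slc16a1* had 0.20, 0.34, 0.21 and 0.01 with these last 4. *Rlbp1* was chosen from the 12 RPE markers after its values were seen. These points share libraries and groups, so the values are a description.

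*Rlbp1* had 220, 617 and 645 CPM in uninjected eyes, 76.0, 72.8 and 44.0 CPM with GFP and 63.2, 49.1 and 37.6 CPM with nSREBP2. It had 313, 72.8 and 76.7 CPM with ctrl sh, 128, 203 and 140 CPM with Lrp2 sh1 and 52.4, 54.0 and 80.0 CPM with Lrp2 sh2, a 17.1-fold range over all libraries. The ratio of *Slc16a8* to *Rlbp1* CPM ranged over 2.68-fold, from 0.304 to 0.813, and that of *Slc16a1* to *Rlbp1* over 3.52-fold. The ratio for *Slc16a8* was 0.772 ± 0.0564 with ctrl sh, 0.598 ± 0.0175 with Lrp2 sh1 and 0.333 ± 0.0328 with Lrp2 sh2 (SD, n = 3), and these 3 groups did not overlap. In uninjected eyes the *Slc16a8* ratio was 0.461 ± 0.0203, with every library below those of ctrl sh and Lrp2 sh1. It was 0.335 ± 0.0315 with GFP and 0.438 ± 0.0505 with nSREBP2. All 3 ctrl sh libraries, replicate 1 included, lay between 0.707 and 0.813 for *Slc16a8*. For *Slc16a1* the ctrl sh ratios were 0.708, 1.67 and 1.57, so replicate 1 stayed apart. The *Slc16a1* ratio was 0.533 ± 0.0591 in uninjected eyes, 1.47 ± 0.22 with GFP and 1.42 ± 0.27 with nSREBP2 (SD, n = 3). It was 1.22 ± 0.156 with Lrp2 sh1 and 0.992 ± 0.157 with Lrp2 sh2.

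**Figure D3:**
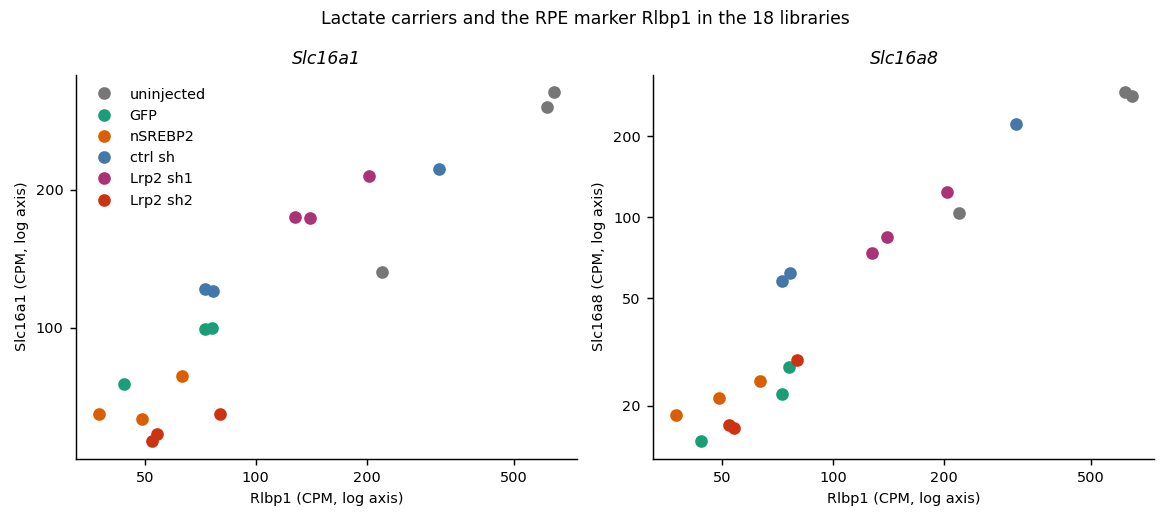
CPM of *Slc16a8* and *Slc16a1* against CPM of *Rlbp1* (log axes), 1 point for each of the 18 libraries, coloured by group. The libraries with the most *Rlbp1*, at 617 and 645 CPM, were uninjected and had 292 and 282 CPM of *Slc16a8*.

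The share of *Slc16a8* in the carrier pair, by CPM per kb, was 62.8% ± 2.36 in uninjected eyes and lower in each injected group by its mean. It was 31.0% ± 3.86 with GFP, 37.7% ± 2.01 with nSREBP2, 54.8% ± 9.80 with ctrl sh, 48.9% ± 3.92 with Lrp2 sh1 and 39.7% ± 6.32 with Lrp2 sh2 (SD, n = 3). The share of *Slc2a12* in the glucose transporter pair stayed under 10% as a group mean, from 2.26% ± 0.296 with GFP to 8.56% ± 1.38 with ctrl sh.

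In uninjected eyes the glucose transporter *Slc2a1* and the lactate carrier *Slc16a8* had the highest mean levels per kb of the 10 genes. *Slc2a1* had 113 ± 34.1 and *Slc16a8* 99.3 ± 46.5 CPM per kb (SD, n = 3), followed by *Pkm* at 71.6 ± 9.57, *Ldhb* at 60.0 ± 21.4, *Slc16a1* at 57.4 ± 24 and *Ldha* at 35.7 ± 1.19. *Hk1* had 16.9 ± 1.60, *Pfkp* 7.01 ± 1.13, *Slc2a12* 5.09 ± 1.45 and *Hk2* 4.49 ± 0.686 CPM per kb. Among neighbours in this order, the libraries lay apart only between *Ldha* and *Hk1* and between *Hk1* and *Pfkp*.

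The order differed in the injected groups. With nSREBP2, *Pkm* came first at 87.7 CPM per kb, then *Ldha* at 49.4, *Slc2a1* at 36.7 and *Ldhb* at 30.4. With Lrp2 sh2, *Pkm* had 96.2, *Slc2a1* 56.8, *Ldhb* 43.1 and *Ldha* 40.4 CPM per kb, and *Slc16a8* had 9.22, below *Slc16a1* at 13.6. The exon length joins all annotated exons of a gene, which lowers the value of *Pfkp*, whose exons span 13401 bases.

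Counted over the 10 genes, more members lay apart with Lrp2 sh2 than with the other vectors. In nSREBP2 versus GFP, the libraries of 4 of 10 members did not overlap, 2 higher and 2 lower, where 38.2% of 17927 genes tested did not overlap. With Lrp2 sh1 versus ctrl sh, 5 members did not overlap, 2 higher and 3 lower, beside 25.3% of 17801 genes. With Lrp2 sh2 versus ctrl sh, 8 members did not overlap, 3 higher and 5 lower, beside 36.8% of 18089 genes. The median log2FC of the 10 members was -0.01, 0.01 and -0.35, beside -0.02, -0.01 and 0.01 over all genes tested. Because the members were chosen on these levels, nothing is read from these counts, and the hairpin comparisons share their ctrl sh libraries.

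**Figure D4:**
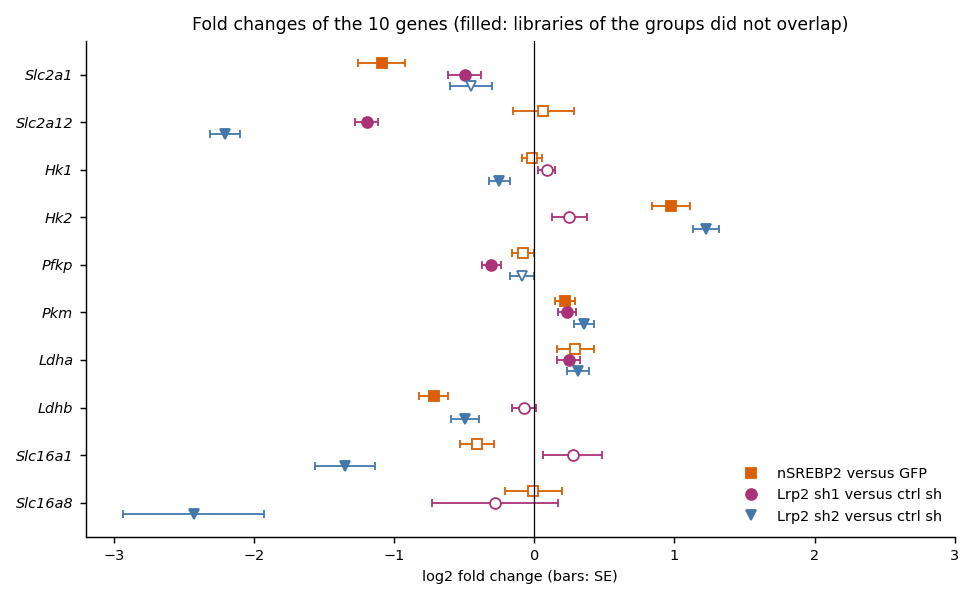
Log2 fold change of the 10 genes in nSREBP2 versus GFP and each hairpin versus ctrl sh, with bars of 1 SE and filled points where the 3 libraries of each group did not overlap. The lowest point is *Slc16a8* at -2.43 and the highest *Hk2* at 1.22, both with Lrp2 sh2.

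The lactate carriers and *Slc2a1* had lower means with both control vectors than in uninjected eyes. In GFP versus uninjected eyes, *Slc2a12*, *Slc16a1* and *Slc16a8* lay wholly below, 3 of 10 members, beside 25.0% of 17837 genes. *Slc2a1* overlapped (log2FC -0.54 ± 0.22, and -0.76 without uninjected replicate 1), as did *Ldhb* (-0.27 ± 0.24, with -0.53 without it and -0.14 with sex as a term). In ctrl sh versus uninjected eyes, *Slc2a12* and *Hk1* lay above and *Hk2* below, 3 of 10 members, beside 31.9% of 17822 genes. *Slc16a8* had a log2FC of -0.99 ± 0.54 and *Slc16a1* of -0.73 ± 0.34, and without uninjected replicate 1 they had -1.33 and -1.03. Without ctrl sh replicate 1 they had -1.92 and -1.08, and the other two ctrl sh libraries lay below every uninjected library for both genes. The 2 comparisons share the uninjected libraries.

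The 2 hairpins against *Lrp2* differed in the levels of these genes, while *Lrp2* itself was at 37.0 ± 6.56 CPM with Lrp2 sh1 and 38.6 ± 4.57 CPM with Lrp2 sh2 (SD, n = 3). In Lrp2 sh2 versus Lrp2 sh1, 7 of 10 members did not overlap, 2 higher and 5 lower, beside 39.0% of 17975 genes. *Slc16a8* was lower with Lrp2 sh2 by a log2FC of -2.15 ± 0.24, *Slc16a1* by -1.63 ± 0.09 and *Slc2a12* by -1.02 ± 0.13. *Ldhb* and *Hk1* were lower as well, with -0.42 ± 0.08 and -0.34 ± 0.06. *Hk2* was higher by 0.97 ± 0.12 and *Pfkp* by 0.22 ± 0.08. *Slc2a1*, *Pkm* and *Ldha* overlapped between the hairpins, with log2FC of 0.04 ± 0.11 (-0.06 with sex as a term), 0.12 ± 0.06 and 0.06 ± 0.09. The summed RPE markers were 5834 to 6155 CPM with Lrp2 sh1 and 4571 to 5017 CPM with Lrp2 sh2. Of the 12 markers in this sum, 1 passed as higher and 5 as lower with Lrp2 sh2 than with Lrp2 sh1 (median log2FC -0.52). *Lrat* had 68.0, 149 and 65.9 CPM with Lrp2 sh1 and 8.80, 5.63 and 8.98 CPM with Lrp2 sh2. *Krt18* had 127, 123 and 130 CPM with Lrp2 sh1 and 241, 306 and 344 CPM with Lrp2 sh2. The 16 rod markers summed to 40.5 to 84.8 CPM with Lrp2 sh1 and 133 to 543 CPM with Lrp2 sh2.

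The genes whose pattern over the 18 libraries was most like that of a member were ranked among 12357 genes by Pearson r of log2(CPM + 1). For the carriers these were *Cntnap4* and *Slc6a20a* with *Slc16a8* (r of 0.98 each) and *Baiap2l2* (0.98) and *Tbc1d1* (0.97) with *Slc16a1*. *Ldhb* was closest to *Mfrp* and *Pla2g5* (0.96 each), *Slc2a1* to *Itpr1* (0.95) and *Fam13a* (0.94), and *Slc2a12* to *Adra2c* (0.95) and *Arl6ip1* (0.93). *Hk2* was closest to *Tlr2* (0.95) and *Bcl3* (0.94), *Pkm* to *Tufm* (0.95) and *Cct5* (0.90), *Hk1* to *Timm22* and *Ghdc* (0.91 each), *Pfkp* to *Nat8l* (0.91) and *Rnft2* (0.86), and *Ldha* to *Gda* (0.89) and *Rpl6* (0.87). Members varied against each other as well as together, with r of -0.75 between *Hk2* and *Ldhb*.

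The rest of the pathway was read from 119 other genes in 9 lists, which were tested in the fits over all genes. In nSREBP2 versus GFP 104 of them were tested, and 21 rose and 14 fell, beside 12.6% and 8.47% of all genes tested. With Lrp2 sh1 versus ctrl sh 6 rose and 5 fell of 105, beside 3.06% and 2.28%. With Lrp2 sh2 versus ctrl sh 11 rose and 20 fell of 105, beside 8.59% and 9.48%. The median log2FC over the lists was -0.03, 0.06 and -0.05. Libraries did not overlap for any of the called list genes in these comparisons. With 1 library left out, the count of calls with nSREBP2 was 23 without GFP replicate 1, GFP replicate 2 or nSREBP2 replicate 1. For Lrp2 sh1 it was 18 without ctrl sh replicate 1, 6 without ctrl sh replicate 2 or 3, 5 without Lrp2 sh1 replicate 1 or 3 and 4 without Lrp2 sh1 replicate 2, against 11.

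Glucose transporters other than the members rose and fell. Of 8 tested with nSREBP2, 3 rose and 2 fell (median log2FC 0.12). *Slc2a6*, a transporter of intracellular membranes, rose from 4.33 ± 0.635 to 17.4 ± 2.73 CPM (SD, n = 3; log2FC 1.99; adjusted P = 5.48e-05, edgeR). *Slc2a4*, the insulin-regulated transporter GLUT4, fell (log2FC -0.93; adjusted P = 0.00408, edgeR). With Lrp2 sh2, 0 rose and 2 fell of 9 (median -0.06). With Lrp2 sh1, 0 of 9 passed in edgeR, 2 at an unadjusted P under 0.05, and 0 in DESeq2 (median 0.09).

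Other glycolytic enzymes rose and fell one by one. With nSREBP2, 5 rose and 1 fell of 16 (median log2FC 0.01). *Hk3*, the hexokinase of myeloid cells, rose from 3.64 to 9.04 CPM (log2FC 1.31; adjusted P = 0.000605, edgeR), in the comparison in which all 6 macrophage markers rose. *Gapdh*, the enzyme often used as a reference, also rose, from 334 ± 29.3 to 405 ± 13.4 CPM (SD, n = 3; log2FC 0.28; adjusted P = 0.0274, edgeR). Its log2FC was 0.20 with Lrp2 sh1 (adjusted P = 0.0969) and 0.04 with Lrp2 sh2 (adjusted P = 0.756).

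With Lrp2 sh1, 1 glycolytic enzyme rose and 1 fell (median 0.09), and with Lrp2 sh2, 5 rose and 3 fell (median 0.28). *Aldoa*, which splits fructose bisphosphate, rose with Lrp2 sh1 from 439 to 571 CPM (log2FC 0.37; adjusted P = 0.0164, edgeR), and *Pgk1*, which makes ATP in glycolysis, fell (log2FC -0.42; adjusted P = 0.0126, edgeR). *Aldoa* has more than 1 row under its symbol, so its count is uncertain. *Hkdc1*, a hexokinase-like gene, rose with Lrp2 sh2 (log2FC 1.16; adjusted P = 0.0176, edgeR). These 3 calls rested on single libraries. *Aldoa* lost the call without ctrl sh replicate 2 or 3 or Lrp2 sh1 replicate 2 or 3 (adjusted P up to 0.0709), *Pgk1* without Lrp2 sh1 replicate 1 or 2 (up to 0.0637) and *Hkdc1* without ctrl sh replicate 2 or 3 or Lrp2 sh2 replicate 2 (up to 0.0695).

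Enzymes of fructose 2,6-bisphosphate, the activator of phosphofructokinase, rose in part. With nSREBP2, 2 rose and 0 fell (median 0.36), and with Lrp2 sh2, 1 rose, *Pfkfb3*, from 49.0 to 84.4 CPM (log2FC 0.80; adjusted P = 0.000155, edgeR; list median -0.08). With Lrp2 sh1 none passed in edgeR, at an unadjusted P under 0.05 or in DESeq2 (0 in each; median -0.07).

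Monocarboxylate carriers other than the members changed one by one. With nSREBP2, 1 rose and 3 fell of 14 (median -0.12). *Slc16a3* (MCT4), the lactate exporter of strongly glycolytic cells, rose from 10.4 to 21.9 CPM (log2FC 1.08; adjusted P = 0.000567, edgeR). *Emb*, a chaperone of monocarboxylate carriers related to basigin, fell from 46.3 to 23.5 CPM (log2FC -0.98; adjusted P = 0.000286, edgeR), and *Slc16a9* fell by 0.85 on the log2 scale (adjusted P = 0.000848, edgeR).

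With Lrp2 sh1, 1 carrier rose and 2 of the list fell (median -0.02). *Slc16a6* rose from 16.1 to 36.2 CPM (log2FC 1.16; adjusted P = 0.000785, edgeR), while *Emb* fell (log2FC -0.80; adjusted P = 0.00223, edgeR). With Lrp2 sh2, 2 rose and 3 fell (median -0.01). The creatine carrier *Slc16a12* rose from 7.25 to 29.9 CPM (log2FC 2.06; adjusted P = 0.00018, edgeR), and *Slc16a9* fell (log2FC -1.26; adjusted P = 0.000615, edgeR), as did *Bsg* and *Emb*. *Slc16a11* passed with a log2FC of 0.84 (adjusted P = 0.043, edgeR), and lost the call without any library but ctrl sh replicate 1 (adjusted P up to 0.147). It passed in 4 of 14 alternative settings. Its adjusted P was 0.0691 in DESeq2, and in edgeR 0.225 with sex as a term and 0.755 against uninjected eyes.

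Of 14 genes of pyruvate entry into mitochondria, 1 rose and 5 fell with nSREBP2 (median -0.22), and 0 rose and 4 fell with Lrp2 sh2 (median -0.17). *Pdk2*, a kinase that inactivates pyruvate dehydrogenase, fell with nSREBP2 (log2FC -0.47; adjusted P = 0.0339, edgeR). It lost the call without any library but GFP replicate 3 (adjusted P up to 0.115, edgeR) and with sex as a term (adjusted P = 0.293, edgeR). With Lrp2 sh1, 1 rose and 0 fell (median 0.06): *Pcx*, pyruvate carboxylase, from 34.1 to 64.8 CPM (log2FC 0.92; adjusted P = 0.000286, edgeR), which was among the 4 that fell with Lrp2 sh2. In the pentose phosphate pathway, 3 rose and 0 fell with nSREBP2 (*G6pdx*, *Pgd* and *H6pd*, which make NADPH; median 0.21), 1 and 0 with Lrp2 sh1 (median 0.21) and 0 and 1 with Lrp2 sh2 (median 0.07).

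Of the gluconeogenic and glycogen genes, 1 rose and 1 fell with nSREBP2 (median -0.07), 2 and 0 with Lrp2 sh1 (median 0.10) and 1 and 3 with Lrp2 sh2 (median -0.11). *Pygm*, muscle glycogen phosphorylase, rose with Lrp2 sh1 from 60.1 to 74.4 CPM (log2FC 0.30; adjusted P = 0.0377, edgeR) and fell with Lrp2 sh2 (log2FC -0.85; adjusted P = 0.000173, edgeR). *Gbe1*, the branching enzyme, rose with Lrp2 sh1 (log2FC 0.41; adjusted P = 0.0371, edgeR). The Lrp2 sh1 call of *Pygm* was lost without any library but ctrl sh replicate 1 (adjusted P up to 0.156), and that of *Gbe1* without any 1 of the 6 libraries (up to 0.134).

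Of the glucose- and oxygen-responsive regulators, 3 rose and 2 fell with nSREBP2 (median -0.08), 0 and 2 with Lrp2 sh1 (median -0.05) and 2 and 3 with Lrp2 sh2 (median -0.08). *Myc*, a transcription factor that drives glycolytic genes in many cells, rose from 9.68 to 21.4 CPM with nSREBP2 (log2FC 1.13; adjusted P = 0.00309, edgeR), and had an adjusted P of 0.0815 in a fit of all 18 libraries with sex as a term. *Epas1*, the gene of HIF-2α, fell with nSREBP2 from 1136 ± 134 to 678 ± 53.8 CPM (SD, n = 3; log2FC -0.75; adjusted P = 0.000579, edgeR). It also fell with Lrp2 sh2 (log2FC -0.83; adjusted P = 0.000201, edgeR) and with Lrp2 sh1 (log2FC -0.27; adjusted P = 0.0307, edgeR). *Epas1* is strongly expressed in endothelium. Of 8 endothelial markers, 6 passed as lower with nSREBP2, 7 with Lrp2 sh2 and 0 with Lrp2 sh1. The part of endothelium in the *Epas1* values was not tested.

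*Txnip*, an inhibitor of glucose uptake, fell with Lrp2 sh1 (log2FC -0.36; adjusted P = 0.0215, edgeR). It fell further with Lrp2 sh2 (log2FC -0.65; adjusted P = 0.000539, edgeR). The Lrp2 sh1 calls of *Epas1* and *Txnip* were each lost without any library but ctrl sh replicate 1, with adjusted P up to 0.121 and 0.089. Among hypoxia targets, 2 rose and 0 fell with nSREBP2 (median 0.04), 0 passed with Lrp2 sh1 in edgeR (6 at an unadjusted P under 0.05, 2 in DESeq2; median 0.14) and 0 rose and 1 fell with Lrp2 sh2 (median -0.03). *Egln3*, an oxygen-sensing prolyl hydroxylase of the regulator list, rose with nSREBP2 from 10.1 to 33.5 CPM (log2FC 1.72; adjusted P = 1.57e-05, edgeR) and with Lrp2 sh2 (log2FC 1.01; adjusted P = 0.0158, edgeR). Without ctrl sh replicate 3 the latter had an adjusted P of 0.0691, and 0.129 with sex as a term. *Vegfa*, the vascular growth factor, fell with Lrp2 sh2 (log2FC -0.88; adjusted P = 0.00117, edgeR).

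**Figure D5:**
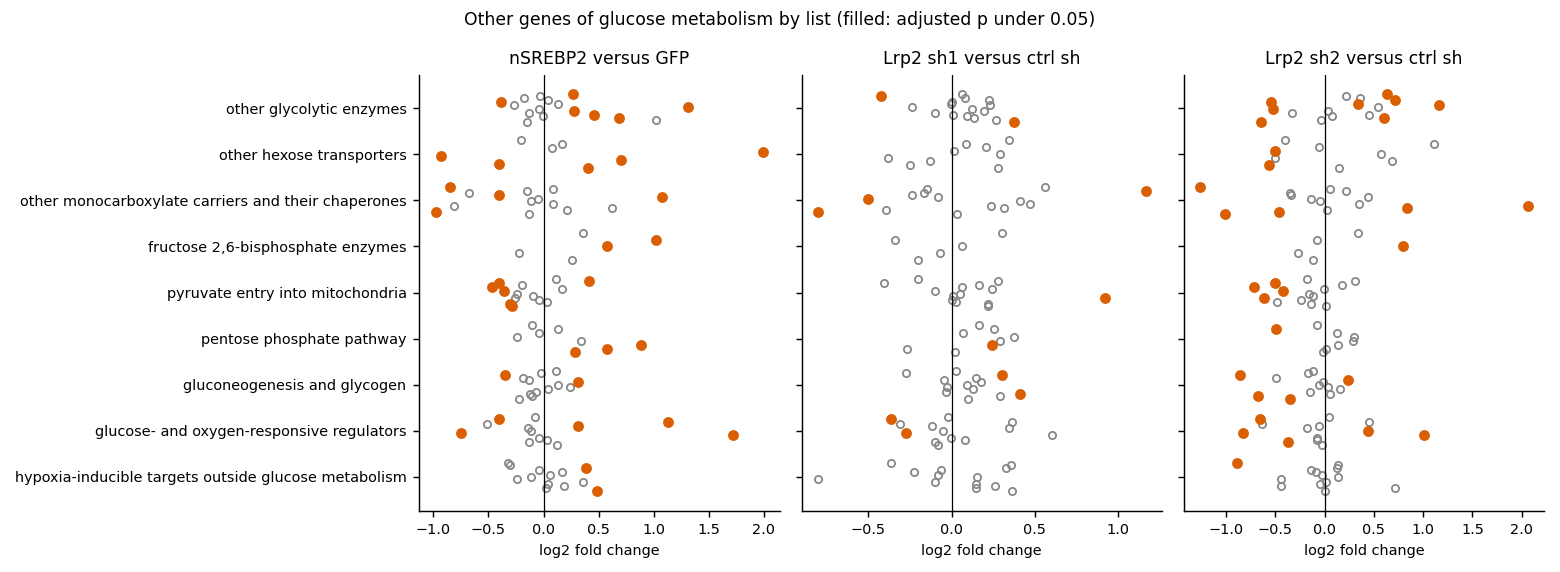
Log2 fold change of the tested genes of the 9 lists in nSREBP2 versus GFP and each hairpin versus ctrl sh, 1 open point for each gene, filled where it passed the edgeR test (adjusted P under 0.05). The filled point farthest to the right is *Slc2a6* with nSREBP2, at 1.99, and *Slc16a12* with Lrp2 sh2, at 2.06.

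The control vectors were also compared with uninjected eyes over the list genes. In GFP versus uninjected eyes 0 rose and 1 fell of 103, beside 0.662% and 1.82% of all genes tested, and DESeq2 called 8, while edgeR with DESeq2 size factors called 1 higher and 1 lower. The gene was *Car9*, a carbonic anhydrase and hypoxia target (log2FC -1.47; adjusted P = 0.0198, edgeR). In ctrl sh versus uninjected eyes 7 rose and 5 fell of 103, beside 3.13% and 3.37%. The 12 calls became 0, 1 and 7 without ctrl sh replicates 2, 3 and 1, and 6 without uninjected replicate 3. The 1 call of GFP versus uninjected eyes became 7 and 2 without uninjected replicates 1 and 2, and 0 without uninjected replicate 3, GFP replicate 1 or GFP replicate 2. In Lrp2 sh2 versus Lrp2 sh1 17 rose and 30 fell of 106, beside 10.2% and 12.3%, and 29 or 31 were called without Lrp2 sh1 replicate 1 or 2.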

How the data were processed

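RPE RNA was sequenced from rRNA-depleted directional libraries. The deposited table holds raw counts per gene, which the authors made by aligning reads to GRCm38 with STAR, as the submitters' processing notes name the aligner and build. The strand setting of the counting is not given in the sources used here. Symbols and exon lengths came from GENCODE M21, to which 52489 of 52636 genes matched. Of the listed genes, 16093 had no count. Libraries held 8921885 to 13696934 counts.

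The counts were fitted with edgeR 4.0.16 (R 4.3.3) by its quasi-likelihood test, with filterByExpr, TMM scaling and Benjamini-Hochberg adjustment at 0.05, on the 6 libraries of each comparison. DESeq2 1.42.0, other scaling and filters, one fit of all 18 libraries, a replicate block, a sex term, the uninjected libraries as control, a log2FC threshold of 1 and each library left out were alternatives. The scripts were checked on simulated counts. CPM used TMM-scaled library sizes.

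The members and lists were chosen with earlier results of these data known. Named list genes are, in each comparison of the study, up to 5 in each direction with the largest change among those called at a mean of at least 1 CPM. *Gapdh*, *Bsg*, *Srebf2* and *Lrp2* were named in addition. Other genes, such as *Rlbp1*, *Rpe65* and *Car9*, were named after their values were seen. One gene that the rule selects is counted in its list but not reported here. P-values measure the spread between libraries, each from 1 mouse. The deviations of same-numbered replicates had correlations from -0.30 to 0.34, with no common sign, so the numbers were not used as pairs. The highest were 0.28 and 0.34, for numbers 2 and 3 of Lrp2 sh2 versus Lrp2 sh1, where number 1 had -0.01. Promoters were taken from RefSeq (GRCm38.p6).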

Additional observations from a re-analysis of the deposited data

Results flagged for a closer look

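The 2 hairpins against *Lrp2* gave different changes for 14 of 17 list genes named in their comparisons, by the edgeR test of Lrp2 sh2 versus Lrp2 sh1 itself, which does not use the shared ctrl sh libraries. These genes were named for large changes with one of the hairpins in the same libraries, so that their share is raised by the choice and nothing is read from it. Over all genes tested, 10.2% were higher and 12.3% lower with Lrp2 sh2 than with Lrp2 sh1. The differences below are log2FC of Lrp2 sh2 minus Lrp2 sh1, each with an adjusted P from edgeR.

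*Pcx* differed by -1.54 (adjusted P = 9.64e-06), *Aldoa* by -1.02 (adjusted P = 1.04e-05) and *Pygm* by -1.16 (adjusted P = 2.17e-06). These 3 rose with Lrp2 sh1 and fell with Lrp2 sh2 versus ctrl sh.

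Carriers and their chaperone differed as well. *Slc16a9* differed by -1.82 (adjusted P = 2.82e-06), *Bsg* by -1.05 (adjusted P = 3.4e-05) and *Slc16a6* by -0.95 (adjusted P = 0.000281), and the value was 1.82 for *Slc16a12* (adjusted P = 0.000116).

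Among enzymes, *Hkdc1* differed by 0.92 (adjusted P = 0.00104), *Pfkfb3* by 0.73 (adjusted P = 9.28e-05), *Pgk1* by 0.64 (adjusted P = 0.000423) and *Gbe1* by -0.36 (adjusted P = 0.0135). *Epas1* differed by -0.56 (adjusted P = 0.000303), *Vegfa* by -0.52 (adjusted P = 0.0013) and *Txnip* by -0.29 (adjusted P = 0.0173).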

How the results depend on the processing

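The counts of list genes called were 35 (nSREBP2 versus GFP), 11 and 31 (Lrp2 sh1 and Lrp2 sh2, each against ctrl sh), 1 and 12 (GFP and ctrl sh, each against uninjected eyes) and 47 (the second hairpin against the first). With the study's added threshold of an absolute log2FC above 1 they were 6, 1, 5, 1, 2 and 6. Leaving out 1 library gave 23 to 34, 4 to 18, 24 to 30, 0 to 7, 0 to 14 and 29 to 42. A replicate block gave 32, 5, 27, 2, 1 and 45 calls, and the numbers are not known to pair the samples. For Lrp2 sh1 versus ctrl sh the count was 19 without a filter on low counts, 7 in one fit of all 18 libraries, 7 with sex as a term and 31 against uninjected libraries. For GFP versus uninjected it was 8 in DESeq2, 2 with DESeq2 size factors, 8 without a filter, 2 with at least 10 counts in every library, 17 in one fit of all libraries and 11 with sex as a term. For ctrl sh versus uninjected it was 25 in one fit and 22 with sex as a term. For nSREBP2 versus GFP, where sex and group coincide, it was 24 with sex as a term, 14 higher and 10 lower. With that term it was 27 for Lrp2 sh2 versus ctrl sh and 33 for Lrp2 sh2 versus Lrp2 sh1. The cause of these moves was not tested. The differences of the 10 members in the comparisons of the study were set beside the alternatives, each left-out library included. Of these, 388 moved by less than the spread between replicates and 32 by more. A left-out library is part of the spread its fit is measured against, so such fits tend to count as less. Nothing is read from this tally. Some differences were past an absolute log2FC of 0.2 in the fit of the 6 libraries of a comparison. Of these, the sign turned for *Hk2* (to -0.45) and *Slc16a1* (to -0.44) with Lrp2 sh1 against uninjected libraries. It also turned for *Slc16a8* (to 0.65) with Lrp2 sh1 without ctrl sh replicate 1. Among smaller differences, *Slc2a12* with nSREBP2 went from 0.06 to -1.45 against uninjected libraries. With sex as a term, nSREBP2 versus GFP had log2FC of -1.23 ± 0.31 for *Slc2a1*, 1.09 ± 0.20 for *Hk2* and -1.03 ± 0.25 for *Ldhb*. Against uninjected libraries *Slc16a3* with nSREBP2 (adjusted P = 0.378, edgeR) and *Slc16a6* and *Pcx* with Lrp2 sh1 (0.0637 and 0.113) were no longer called. Depth limits the list genes near the filter on low counts.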
